A study of Mus musculus with 6 samples.

Results

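This report describes 36 imprinted genes in newborn mouse cortex, compared between Npas3+/- and wild-type tissue. They were taken from a list of gene symbols, and all 36 were found among the 53379 genes of the count table. They fall into 18 imprinted clusters, of which 9 are represented by a single gene. The usual expressed allele is the maternal one for 14 genes and the paternal one for 20, while for Grb10 and Gnas it depends on the product or the cell type. These classes are general knowledge of the mouse and were not measured: the counts do not separate the parental alleles, and all samples carry the strain label C57BL/6. For 10 of the 36 genes, Grb10 and Gnas included, the expressed allele is known to vary with isoform or cell type.

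The study compared bulk RNA sequencing of cortex at postnatal day 0 between 3 Npas3+/- libraries, from mice heterozygous at the Npas3 locus, and 3 wild-type (WT) libraries. How the Npas3 allele was made is not stated in the labels, nor whether replicates came from separate animals. The p-values therefore speak to the spread between libraries, which may be technical in part. Npas3+/- replicate 2 came from another animal than Npas3+/- replicates 1 and 3, since it alone held much Xist RNA (below). For the other libraries, separate animals cannot be told. Npas3, a neural transcription factor of the bHLH-PAS family, stood at 15.0, 14.1 and 8.61 CPM (read counts scaled to a common library size) in Npas3+/- and at 23.4, 28.4 and 25.7 in WT, so the libraries follow their labels.

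Imprinted genes are transcribed mainly from the copy inherited from 1 parent. The choice is set by DNA methylation laid down in the germ line at imprinting control regions, and it is read out over clusters through insulators, long noncoding RNAs or silenced promoters. In brain, imprinted products act on neuron number, synaptic protein turnover, feeding circuits and growth factor signalling.

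Total counts ran from 67378231 to 87811574 per library. The leading principal component of log2 CPM held 28% of the variance and put Npas3+/- replicates 1 and 2 at -65.9 and -44.1, away from replicate 3 at 23 and the WT libraries at 10.8 to 47.7. Xist, the RNA of the inactive X chromosome, reached 3667 CPM in Npas3+/- replicate 2, where the other 5 libraries had at most 2.02 CPM. Sex therefore differed within the Npas3+/- group, and it was not a term in the fit. The cortical projection neuron markers Tbr1 and Neurod6 were abundant in every library, Tbr1 at 252 to 303 CPM in Npas3+/- and 252 to 278 in WT, and Neurod6 at 545 to 721 in Npas3+/- and 450 to 564 in WT.

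The imprinted genes lay slightly lower in Npas3+/- cortex as a set, and none passed the threshold. Of the 36, 35 had enough reads to be tested, and 28 of these 35 (80%) had a log2 fold change below 0, against 51.8% of all 21244 genes tested. Their median log2 fold change was -0.10, against -0.009 for all genes, and their median absolute change of 0.11 was smaller than the median spread between replicates of 0.13 (SD on the log2 scale). The same held for all genes tested, at 0.17 and 0.22. No imprinted gene had an adjusted p under 0.05 in edgeR's quasi-likelihood test, where 8 genes did over the whole table (0.0377%). Npas3 itself, at 48.6% of WT, did not pass in edgeR either (adjusted p = 0.27) and passed in DESeq2 (adjusted p = 0.000175). A gene that fails in edgeR is therefore not shown to be unchanged. DESeq2, which called 2.41% of all genes, called 1 imprinted gene, Peg10. At an unadjusted p under 0.05, 11 imprinted genes were lower and 0 higher, against 5.84% of all genes lower and 6.29% higher. Among genes at 1 CPM or more, which include every tested imprinted gene, 6.95% were lower at that p and 49.5% had a fold change below 0.

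The WT and Npas3+/- libraries did not overlap for 8 imprinted genes that were lower in Npas3+/- and for 2 that were higher. Over all genes these shares were 9.18% and 9.7%. The 8 lower ones were Usp29, Zim1, Inpp5f, Rian, Peg10, Nap1l5, Blcap and Slc22a3, and the 2 higher ones were Grb10 and H13. Genes of a cluster share enhancers and control regions and all genes share the same 6 libraries, so these counts are not counts of independent events.

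**Figure D1:**
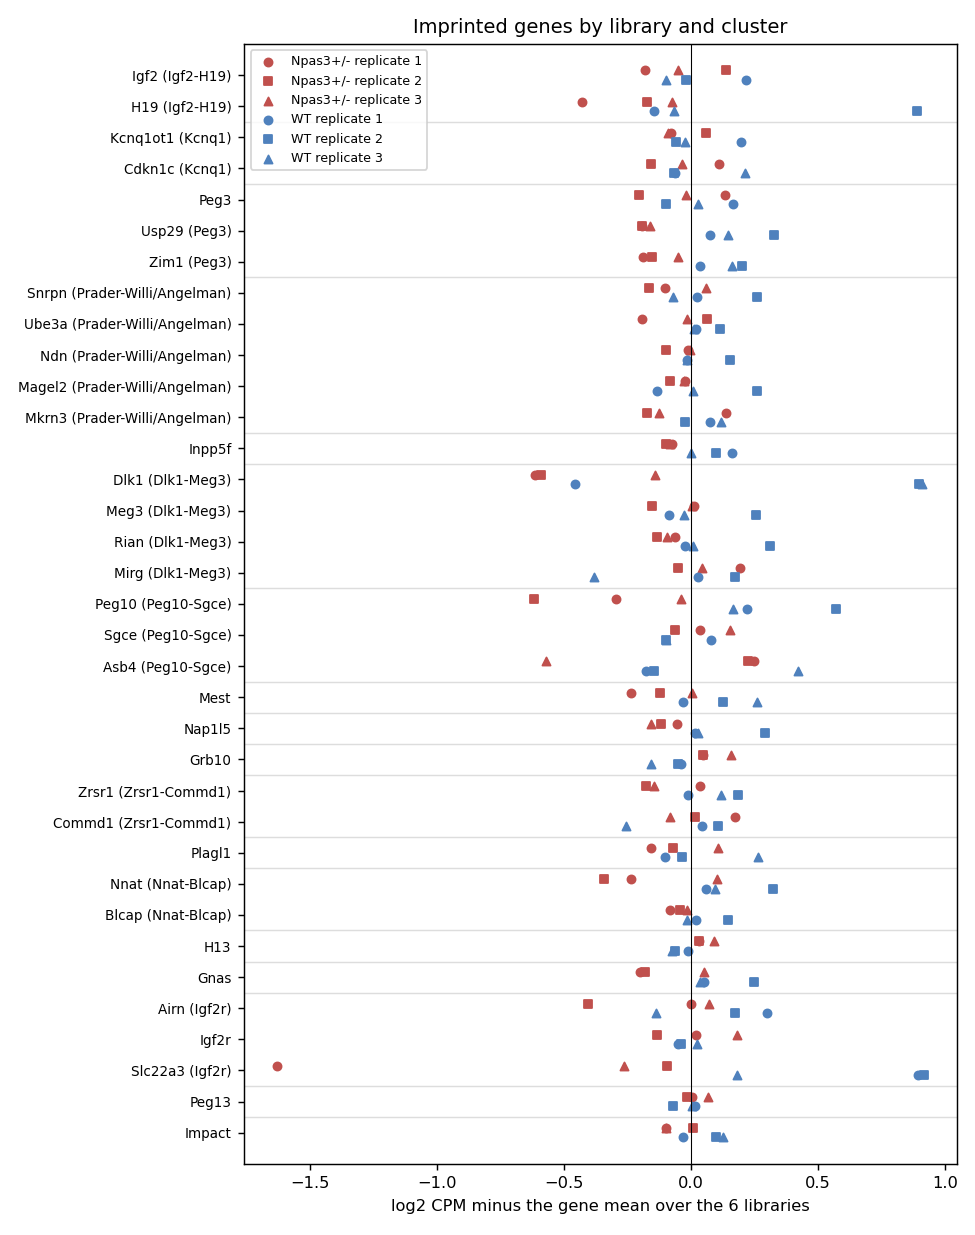
Each row is an imprinted gene with its cluster in parentheses, and each point is the log2 CPM of 1 library minus the gene's mean over the 6 libraries (red Npas3+/-, blue WT, symbols for replicates). WT replicate 2 (blue squares) is the highest library for 16 of the 35 genes and Npas3+/- replicate 2 (red squares) is the lowest for 14.

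The libraries did not contribute equally to these lower values. WT replicate 2 was the highest library for 16 of 35 imprinted genes (45.7%), where it was the highest for 19.6% of all genes. Npas3+/- replicate 2 was the lowest for 14 (40%, against 17.6% of all genes) and replicate 1 for 10 (28.6%, against 19.7%). The mean deviation of the imprinted genes from their own average was -0.11, -0.12 and -0.036 log2 units in the Npas3+/- libraries, and 0.037, 0.18 and 0.053 in the WT libraries, in replicate order. The count of 11 genes at an unadjusted p under 0.05 became 3 without WT replicate 2, 4 without Npas3+/- replicate 1, 4 without Npas3+/- replicate 2 and 7 without WT replicate 3. A fit with a library left out has less power for every gene. The share of all genes at that p was not computed for these runs, so the drops cannot be credited to the imprinted genes. The count of genes with a fold change below 0 stayed between 25 and 28 when any library was left out.

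Markers of other cell types and regions also differed between the libraries. Of 15 striatal markers 14 had a fold change below 0 (median log2 fold change -1.13), with a summed level of 373 to 444 CPM in Npas3+/- and 372 to 583 in WT. The striatal score was -1.18, -1.22 and 0.45 in Npas3+/- and 1.14, 1.40 and -0.59 in WT, so Npas3+/- replicates 1 and 2 were low and WT replicates 1 and 2 high. With that score as a covariate, 26 imprinted genes had a fold change below 0, and 2 were lower at an unadjusted p under 0.05. The share of all genes at that p was not computed with the covariate, which also costs power. The score ran partly with genotype, so this fit cannot fully separate it from genotype.

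Radial glia and astrocyte markers were lower for 13 of 14, with sums of 790 to 1016 CPM in Npas3+/- against 1163 to 1246 in WT. Interneuron markers were lower for 12 of 14 (607 to 816 against 809 to 957 CPM), thalamic markers for 6 of 9 tested (262 to 289 against 263 to 328) and microglial markers for 12 of 12 (52.2 to 76.5 against 69.7 to 80.5). Hypothalamic markers, of interest because many imprinted genes are abundant there, were near the floor: 5 of 16 were tested, 4 of them lower, and they summed to 3.49 to 6.85 CPM in Npas3+/- and 5.76 to 8.97 in WT. Of the 11 that were not tested, Avp, Hmx2, Hmx3 and Sox14 had 0 counts in every library. Nr5a1 had 0 counts in each Npas3+/- library and 12, 8 and 4 in WT. Otp had 9 counts in Npas3+/- replicate 1 and 0 elsewhere. Nr5a1 and Otp are named after their values were seen.

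Meningeal and pericyte markers, from cells that are rich in several imprinted transcripts, were higher for 9 of 13 tested (125 to 141 against 131 to 138 CPM). Endothelial markers were lower for 7 of 10 (192 to 199 against 197 to 212 CPM) and hippocampal markers for 4 of 8 (485 to 513 against 444 to 510). Choroid plexus markers, near the floor, were lower for 4 of 7 tested (4.54 to 7.17 against 4.28 to 5.13 CPM). Among them Ttr, named after its values were seen, was at 1.41, 1.91 and 0.622 CPM in Npas3+/- and 0, 0.238 and 0 in WT. All 5 red blood cell markers tested had a fold change above 0 (206 to 234 against 185 to 238 CPM). In bulk tissue, fewer cells of a type cannot be told apart from less RNA per cell. The part of these cell types in the imprinted genes' values was not tested.

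Paternally and maternally expressed genes were set side by side as the main contrast within the list. Of 20 paternally expressed genes, all tested, 18 had a fold change below 0, with a median of -0.14. Of 13 maternally expressed genes tested, 9 did, with a median of -0.094. At an unadjusted p under 0.05, 7 of the 20 paternally expressed genes were lower (Peg10, Usp29, Inpp5f, Dlk1, Nnat, Nap1l5 and Mest). Of the 13 maternally expressed genes, 3 were lower at that p (Slc22a3, Zim1 and Rian). The 11th gene was Gnas, which has products from either allele. Over all genes, 5.84% were lower at that p. The groups did not overlap for 4 of 20 paternally and 4 of 13 maternally expressed genes that were lower, against 9.18% of all genes. They did not overlap for 1 of 13 maternally expressed genes that was higher, H13, against 9.7% of all genes.

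Both class medians lay on the same side of 0 and close together, and the difference between the classes was not tested. Keeping only genes whose expressed allele is not known to vary gave -0.14 for 18 paternally expressed genes and -0.10 for 7 maternally expressed ones, 16 and 6 of them lower. At an unadjusted p under 0.05 in edgeR, 6 of these 18 and 2 of these 7 were lower. Without WT replicate 2 the maternal median was -0.060 and the paternal one -0.13. With the striatal covariate they were -0.056 and -0.13. The 7 noncoding RNAs and the 28 tested protein-coding genes had the same median, -0.10, with 5 and 23 lower.

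**Figure D2:**
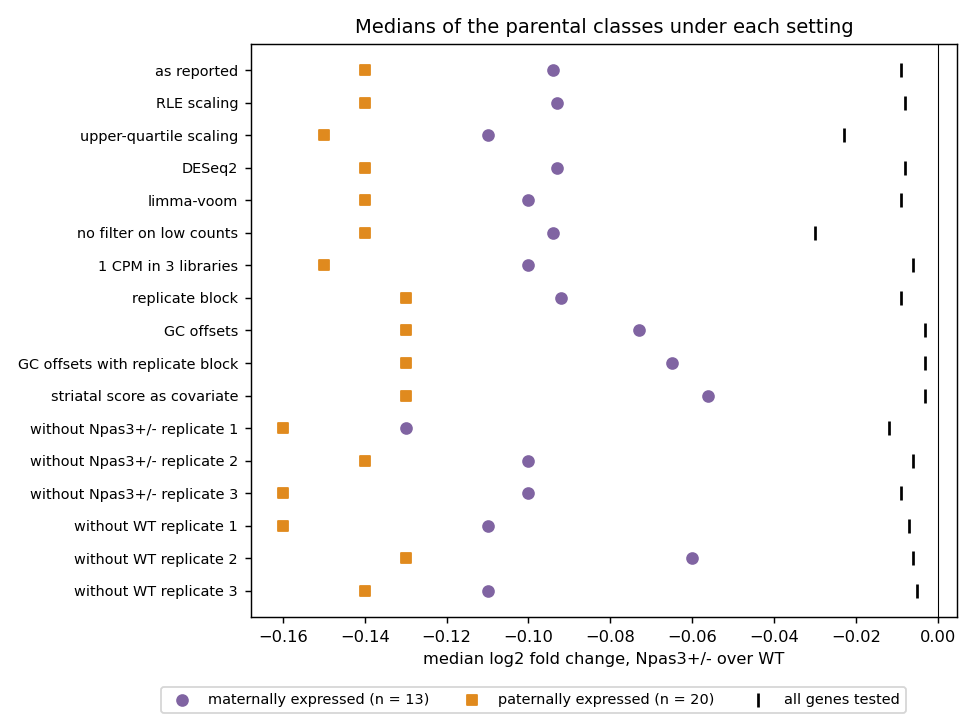
The median log2 fold change of the maternally expressed (purple circles) and paternally expressed genes (orange squares) and of all genes tested (black bars) is drawn for each way of processing the counts. The paternal median stays between -0.16 and -0.13 and the maternal median between -0.13 and -0.056, both below the median of all genes in every row.

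By level per length, the imprinted genes of newborn cortex spanned a wide range. On the scale of RPKM, which is CPM divided by exon length in kilobases (mean of the 6 libraries), Nnat was highest at 199, followed by Snrpn at 120, Meg3 at 100, Ndn at 89.5, Peg13 at 72.2 and Gnas at 59.3. The lowest tested were Asb4 at 0.262, Kcnq1ot1 at 0.338, Dlk1 at 0.344 and Airn at 0.436. Phlda2, a pleckstrin homology protein that restrains placental growth, was the only untested member, with 0, 0 and 4 counts in Npas3+/- and 4, 0 and 3 in WT.

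In 11 clusters every tested gene had a fold change below 0, in 3 (Grb10, H13 and Peg13) the only gene was above 0, and in 4 the genes went both ways. The clusters follow, starting with Peg10-Sgce and Peg3, which hold the smallest p-values.

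**Figure D3:**
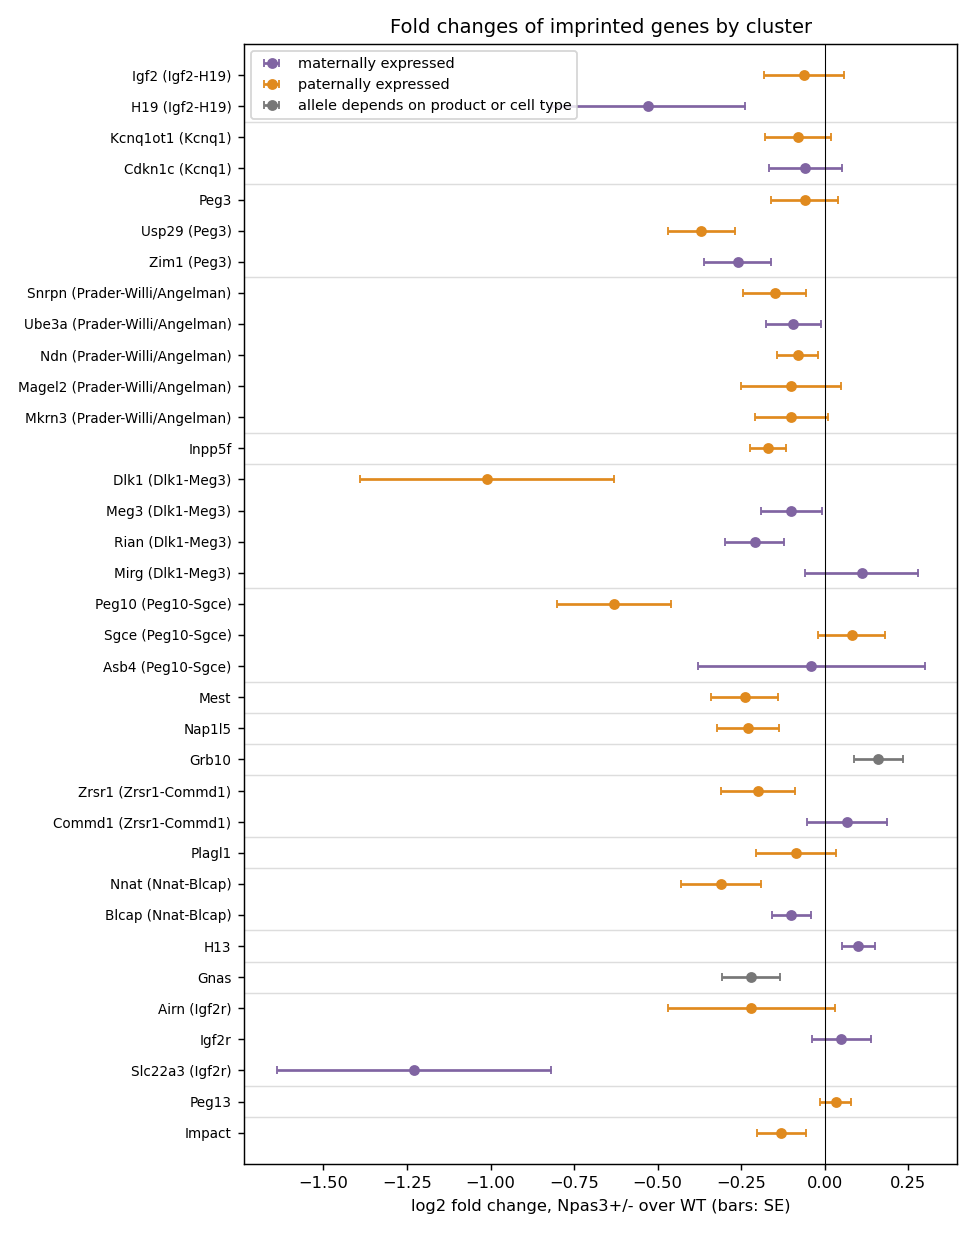
Points are log2 fold changes of Npas3+/- over WT from edgeR and bars their standard errors, by cluster and coloured by the usual expressed allele (purple maternal, orange paternal, grey either). Slc22a3 (-1.23), Dlk1 (-1.01) and Peg10 (-0.63) lie farthest to the left, and Grb10 (0.16) farthest to the right.

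The Peg10-Sgce cluster (mm10 chromosome 6) held the smallest p of the list. Peg10 (4747306 to 4760517), a retrotransposon-derived Gag-like protein, was at 18.6, 14.9 and 22.2 CPM in Npas3+/- and at 26.6, 33.9 and 25.6 in WT. Every Npas3+/- library was below every WT library, and the means were 18.6 ± 3.65 and 28.7 ± 4.57 CPM (SD, n = 3), 64.7% of WT. The log2 fold change was -0.63 (SE 0.17), which did not pass in edgeR (adjusted p = 0.276) and passed in DESeq2 (adjusted p = 0.0186), over a range of 0.0186 to 0.78 across the ways of processing. With the striatal covariate the fold change was -0.39.

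Sgce, the epsilon-sarcoglycan gene of myoclonus-dystonia, starts next to Peg10 on the opposite strand and is expressed from the same paternal copy. It was at 22.7 ± 1.71 CPM in Npas3+/- and 21.4 ± 1.58 in WT (SD, n = 3), a log2 fold change of 0.081 (SE 0.10). Counts of Peg10 were 82.5%, 70.9% and 90.9% of those of Sgce in Npas3+/- and 114%, 166% and 124% in WT, so the ratio of the neighbours separated the groups. Asb4, an ankyrin repeat and SOCS box protein expressed from the maternal copy, was near the floor at 1.01 ± 0.293 and 1.04 ± 0.255 CPM.

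The Peg3 cluster (chromosome 7) encodes zinc finger and deubiquitinase-family proteins. None of its 3 genes passed the threshold, and their median log2 fold change was -0.26. Usp29 (6730578 to 6967219), of the ubiquitin-specific protease family and paternally expressed, was at 13.7, 13.7 and 14.0 CPM in Npas3+/- and at 16.5, 19.6 and 17.3 in WT. The groups were apart, at 77.6% of WT, and the log2 fold change of -0.37 (SE 0.10) did not pass in edgeR (adjusted p = 0.276) nor in DESeq2 (adjusted p = 0.0508). It kept values between -0.42 and -0.29 under every alternative run.

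Zim1 (6671269 to 6696450), a maternally expressed zinc finger gene, was at 13.2, 13.5 and 14.5 CPM in Npas3+/- and 15.4, 17.3 and 16.8 in WT. These groups were apart too, with a log2 fold change of -0.26 (SE 0.10, edgeR adjusted p = 0.364). Peg3 itself (6703892 to 6730431), a paternally expressed zinc finger protein, was at 168, 133 and 151 CPM in Npas3+/- and 172, 143 and 156 in WT, with overlap between genotypes (log2 fold change -0.06, SE 0.10, with 0.024 without Npas3+/- replicate 2 and 0.012 without WT replicate 1). Zim3, an antisense gene, covers 14.3% of the exon bases of Usp29 and had 0 counts in every library. How reads in the shared bases were assigned is not given.

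Peg3 and Usp29 start 146 bases apart and diverge from a single imprinted promoter. The stretch between their annotated starts is shown because it holds the promoter that both genes use; the difference between their fold changes was not tested, and the ratio of Usp29 to Peg3 counts overlapped between genotypes. It was taken from RefSeq promoters of GRCm38 (chr7:6730432-6730577, plus strand, Usp29 to the right), and capitals mark its 5 CpG dinucleotides, the bases that imprinted methylation acts on.
Peg3-Usp29 interval: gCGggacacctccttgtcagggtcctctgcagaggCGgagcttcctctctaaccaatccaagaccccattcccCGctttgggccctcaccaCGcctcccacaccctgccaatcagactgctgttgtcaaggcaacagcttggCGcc

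**Figure D4:**
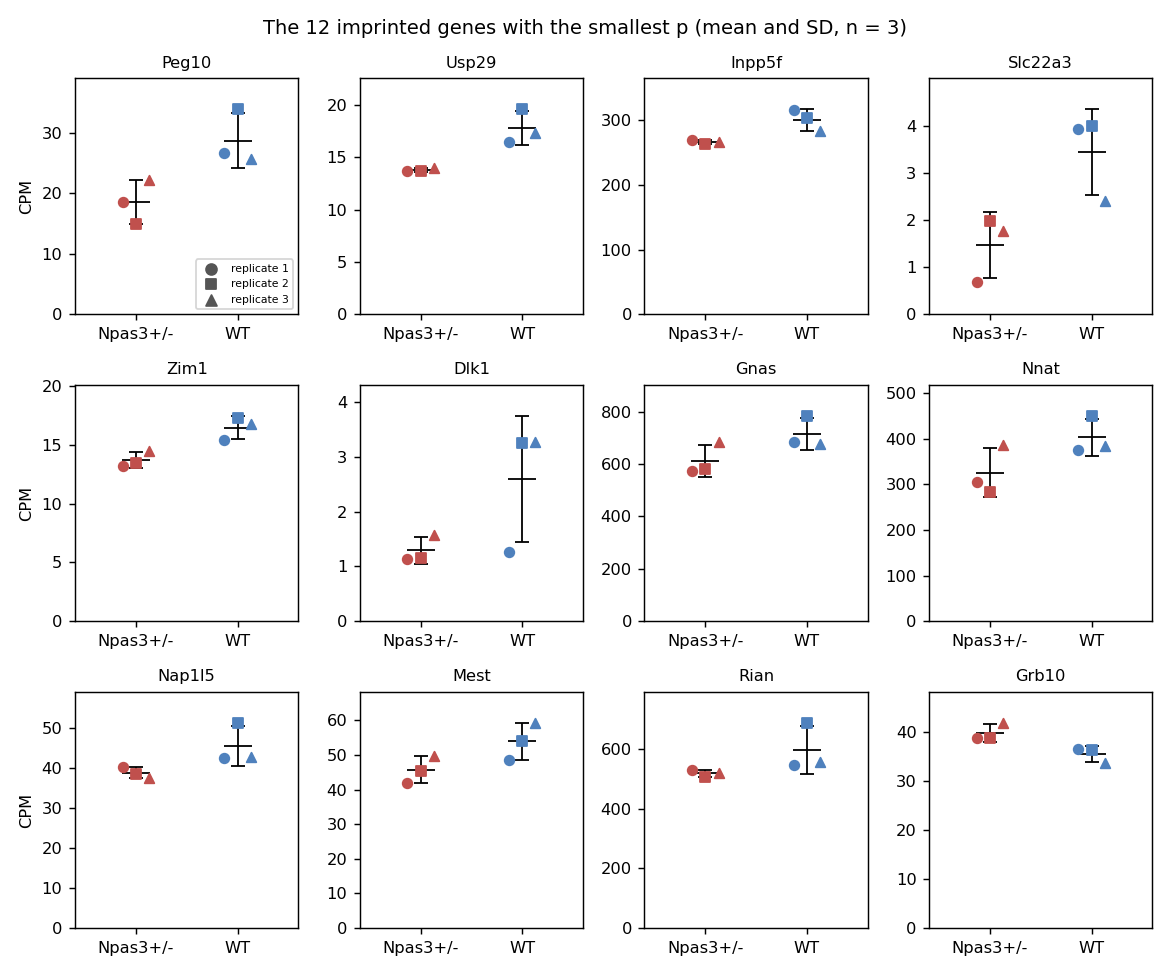
CPM in each library (symbols for replicates, with mean and SD, n = 3) for the 12 imprinted genes with the smallest p, in Npas3+/- (red) and WT (blue). The groups are apart for Peg10, Usp29, Inpp5f, Slc22a3, Zim1, Nap1l5, Rian and Grb10 and overlap for Dlk1, Gnas, Nnat and Mest.

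Inpp5f on chromosome 7 (128611328 to 128696425), an inositol phosphatase of endosomes with an imprinted brain isoform, was at 269, 264 and 267 CPM in Npas3+/- and 316, 303 and 283 in WT. The Npas3+/- libraries lay close together and below WT, at 267 ± 2.59 against 301 ± 16.8 CPM (SD, n = 3). The log2 fold change was -0.17 (SE 0.053, edgeR adjusted p = 0.295). The counts do not separate the imprinted isoform from the others.

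In the Igf2r cluster (chromosome 17) the largest fold change of the list was found at a gene of low level. Slc22a3 (12418960 to 12507704), an organic cation transporter that takes up monoamines and is imprinted chiefly in placenta, was at 0.683, 1.98 and 1.76 CPM in Npas3+/- and 3.93, 4 and 2.4 in WT. All WT libraries lay above all Npas3+/- libraries, with counts of 60 to 152 against 172 to 336. Its log2 fold change was -1.23 (SE 0.41, edgeR adjusted p = 0.328, DESeq2 adjusted p = 0.0703), and -0.79 with the striatal covariate.

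Igf2r (12682406 to 12769664), the receptor that clears IGF2 and sorts lysosomal enzymes, was at 65.5, 58.9 and 73.1 CPM in Npas3+/- and 62.3, 62.8 and 65.6 in WT. The groups overlapped, with a log2 fold change of 0.05 (SE 0.087). Airn, the paternally expressed noncoding RNA that runs antisense through Igf2r and silences it outside neurons, was at 1.45 ± 0.245 and 1.69 ± 0.255 CPM.

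The Dlk1-Meg3 cluster (chromosome 12) pairs a paternally expressed Notch-like ligand with long noncoding RNAs from the maternal copy. Dlk1 (109452823 to 109463336) was at 1.14, 1.16 and 1.58 CPM in Npas3+/- and 1.27, 3.25 and 3.28 in WT. WT replicate 1 lay among the Npas3+/- libraries, and the genotypes overlapped, and the log2 fold change was -1.01 (SE 0.38, edgeR adjusted p = 0.369).

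Rian (109603940 to 109661716), host of C/D box small nucleolar RNAs, was at 530, 505 and 519 CPM in Npas3+/- and 545, 688 and 558 in WT. The groups were apart by a small gap, with a log2 fold change of -0.21 (SE 0.088, edgeR adjusted p = 0.409). It was -0.091 without WT replicate 2 and -0.073 with offsets for GC content. Meg3 (109541001 to 109571726), the most abundant imprinted RNA by CPM, was at 1826, 1625 and 1814 in Npas3+/- and 1706, 2158 and 1773 in WT, a log2 fold change of -0.10 (SE 0.092) that was 0.014 without WT replicate 2.

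Mirg, farthest along the same strand, was at 9.04 ± 0.78 CPM in Npas3+/- and 8.4 ± 1.6 in WT, a log2 fold change of 0.11 (SE 0.17). Rian counts were 28.6% to 31.1% of Meg3 counts in Npas3+/- and 31.5% to 32% in WT. Mirg counts were 1.65% to 1.87% of Rian counts in Npas3+/- and 1.19% to 1.62% in WT. Both ratios separated the groups, in opposite directions. Rtl1, which lies between Dlk1 and Rian and is paternally expressed, was at 5.6 ± 0.477 and 6.23 ± 1.09 CPM (named after its values were seen).

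Mirg hosts 26 mature microRNAs with 25 distinct seeds in RefSeq (GRCm38.p6). The mature microRNAs were not measured in these libraries, and 4 are printed to show what the transcript carries, with the seed (bases 2 to 8) in capitals. miR-453 and miR-496a-5p are the pair that share a seed.
mmu-miR-134-5p: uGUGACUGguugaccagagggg
mmu-miR-410-3p: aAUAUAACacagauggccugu
mmu-miR-453: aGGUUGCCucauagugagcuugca
mmu-miR-496a-5p: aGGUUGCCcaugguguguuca

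**Figure D5:**
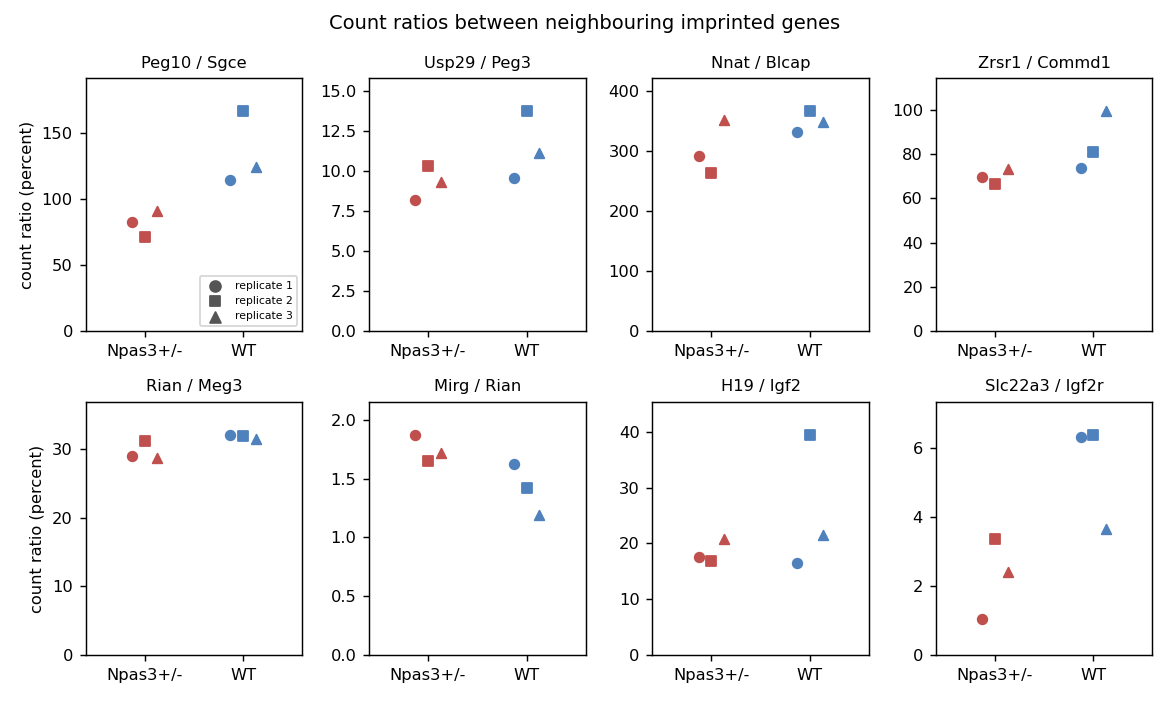
Counts of an imprinted gene as a percentage of the counts of a neighbour in the same cluster, for each library (red Npas3+/-, blue WT, symbols for replicates). The groups are apart for Peg10 to Sgce, Rian to Meg3, Mirg to Rian, Zrsr1 to Commd1 and Slc22a3 to Igf2r, and overlap for Usp29 to Peg3, Nnat to Blcap and H19 to Igf2. The other pairs formed are not drawn, and the groups overlap for all of them.

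Ratios within a cluster were formed for 16 pairs, chosen after the values had been seen, and were not tested. Every pair whose groups were apart is drawn in the figure, and the groups overlapped for all pairs not drawn. The gap between groups was narrow for Zrsr1 to Commd1 and for Rian to Meg3, and how often other gene pairs separate was not computed. Zrsr1 counts were 69.5%, 66.7% and 73.1% of Commd1 counts in Npas3+/- and 73.8%, 81% and 99.3% in WT.

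Nnat and Blcap (chromosome 2) overlap, Nnat lying in an intron of Blcap. Nnat (157560078 to 157562522), neuronatin, a small membrane protein of the endoplasmic reticulum, was at 306, 284 and 387 CPM in Npas3+/- and 375, 450 and 385 in WT. Npas3+/- replicate 3 lay above WT replicates 1 and 3, and the genotypes overlapped, and the log2 fold change was -0.31 (SE 0.12, edgeR adjusted p = 0.378), or -0.14 with the striatal covariate. Blcap, a small membrane protein whose imprinting depends on the transcript, was at 108 ± 2.35 and 116 ± 6.61 CPM (log2 fold change -0.10, SE 0.059).

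Gnas (chromosome 2, 174284320 to 174346744), the stimulatory G protein alpha subunit and its alternative products, was at 574, 581 and 683 CPM in Npas3+/- and 683, 783 and 676 in WT. Npas3+/- replicate 3 was level with WT replicates 1 and 3. The log2 fold change was -0.22 (SE 0.086, edgeR adjusted p = 0.373), -0.15 without WT replicate 2 and -0.088 with the striatal covariate. Antisense and overlapping genes, Gm20721 and Nespas, cover 13.1% and 8.83% of its exon bases, and maternal, paternal and biallelic products share its count.

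H13, which encodes signal peptide peptidase (152669461 to 152708670 on chromosome 2), was at 144, 144 and 150 CPM in Npas3+/- and 140, 135 and 134 in WT. It was higher in every Npas3+/- library, with a log2 fold change of 0.10 (SE 0.049, edgeR adjusted p = 0.453).

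Of the single-gene clusters on chromosome 6, Mest (30723547 to 30748465), an alpha/beta hydrolase of mesoderm and growing tissue, was at 42.0, 45.5 and 49.7 CPM in Npas3+/- and 48.5, 54.0 and 59.3 in WT. WT replicate 1 lay below Npas3+/- replicate 3, and the log2 fold change was -0.24 (SE 0.10, edgeR adjusted p = 0.393). Copg2 on the opposite strand covers 23.1% of the exon bases of Mest.

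Nap1l5 (58905233 to 58907076), a nucleosome assembly family retrogene inside Herc3, was at 40.3, 38.6 and 37.6 CPM in Npas3+/- and 42.4, 51.3 and 42.7 in WT. The groups were apart, and the log2 fold change of -0.23 (SE 0.093, edgeR adjusted p = 0.389) was -0.13 without WT replicate 2.

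On chromosome 11, Grb10 (11930508 to 12038683), an adaptor that dampens insulin and IGF receptor signalling and is paternally expressed in neurons but maternally in most other tissue, was at 38.7, 38.7 and 41.8 CPM in Npas3+/-. In WT it was at 36.5, 36.2 and 33.6. It had the highest fold change of the list, 0.16 (SE 0.074, edgeR adjusted p = 0.433), with the groups apart, and it stayed between 0.13 and 0.25 under every alternative run.

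Zrsr1 (22972005 to 22976496), a splicing factor retrogene in an intron of Commd1, was at 15.3, 13.2 and 13.5 CPM in Npas3+/- and 14.8, 17.0 and 16.2 in WT. Npas3+/- replicate 1 lay above WT replicate 1 (log2 fold change -0.20, SE 0.11). Commd1, a copper and NF-kappaB regulator, was at 20 ± 1.81 and 19.1 ± 2.47 CPM. The 2 genes share 412 exon bases on opposite strands, 9.17% of Zrsr1, so their split is uncertain.

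The Prader-Willi/Angelman cluster (chromosome 7) held 5 genes, all with a small fold change below 0 and none with an unadjusted p under 0.05. Snrpn (59982495 to 60140219), the neuronal spliceosomal protein SmN, was at 240, 230 and 268 CPM in Npas3+/- and 262, 308 and 245 in WT. The groups overlapped (log2 fold change -0.15, SE 0.095), and the value was 0.014 with the striatal covariate and -0.045 without WT replicate 2. Its count is uncertain because Gm38393 on the same strand shares 27.3% of its exon bases.

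Ndn, necdin, a MAGE protein of postmitotic neurons, was at 321 ± 11.6 and 340 ± 23.6 CPM (SD, n = 3). Its relative Magel2, of endosomal sorting, was at 5.56 ± 0.128 and 5.94 ± 0.838 CPM, and Mkrn3, which restrains puberty onset, at 19 ± 2.28 and 20.4 ± 1.02. Ube3a, the ubiquitin ligase lost in Angelman syndrome and maternally expressed in neurons, was at 52.6 ± 4.64 and 56.1 ± 2.23 CPM, a log2 fold change of -0.094 (SE 0.082) that became 0.024 with GC offsets. The 4 log2 fold changes ran from -0.10 to -0.081, each with overlapping groups.

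The transcript that silences paternal Ube3a in neurons stood farther apart. Snhg14, the long host RNA that runs on from Snrpn and ends antisense to Ube3a, was at 190, 197 and 194 CPM in Npas3+/- and 242, 245 and 216 in WT. The groups did not overlap, and its log2 fold change of -0.27 (SE 0.060) passed in DESeq2 (adjusted p = 0.0263) and not in edgeR (adjusted p = 0.272). Gm38393 was at 50.0 ± 1.23 and 64.6 ± 3.27 CPM (log2 fold change -0.37, edgeR adjusted p = 0.27, DESeq2 adjusted p = 0.00176; named after its values were seen). Snhg14 shares 8.74% of the exon bases of Ube3a on the opposite strand.

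At the distal chromosome 7 domains the members overlapped between genotypes. Igf2 (142650766 to 142666816), a fetal growth factor, was at 20.6, 25.7 and 22.5 CPM in Npas3+/- and 27.1, 23.0 and 21.8 in WT (log2 fold change -0.063, SE 0.12). Gm49394 covers 62.8% of the exon bases of Igf2 on the same strand and had 0 counts in every library. How reads in shared bases were assigned is not given, so the count of Igf2 is uncertain. H19, the maternally expressed noncoding RNA that shares enhancers with Igf2, was at 3.64, 4.34 and 4.65 CPM in Npas3+/- and 4.43, 9.06 and 4.68 in WT, so its log2 fold change of -0.53 (SE 0.29) rested on WT replicate 2 and was -0.11 without it.

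Cdkn1c (143458339 to 143461050), the cell cycle inhibitor p57 that promotes exit of cortical progenitors from the cycle, was at 43.7, 36.3 and 39.5 CPM in Npas3+/- and 38.8, 38.7 and 46.9 in WT. The log2 fold change was -0.058 (SE 0.11). Gm44732, antisense to Cdkn1c, covers 30.7% of its exon bases, at 0.569 ± 0.402 and 0.529 ± 0.14 CPM. Kcnq1ot1, the paternally expressed noncoding RNA that silences the domain, was at 30.6 ± 1.79 and 32.4 ± 3.21 CPM (log2 fold change -0.080, SE 0.10).

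The remaining single genes were near their WT level. Plagl1 (chromosome 10, 13060504 to 13131694), the growth-restraining zinc finger factor ZAC1, was at 37.6, 39.9 and 45.2 CPM in Npas3+/- and 39.1, 40.9 and 50.4 in WT. Impact (chromosome 18, 12955852 to 12992950), a neuronal inhibitor of GCN2, was at 42.7, 45.9 and 42.7 CPM in Npas3+/- and 44.7, 48.9 and 49.9 in WT. Their groups overlapped, with log2 fold changes of -0.087 (SE 0.12) and -0.13 (SE 0.074).

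Peg13 (chromosome 15, 72805600 to 72810324), a noncoding RNA in an intron of Trappc9, was at 342, 337 and 357 CPM in Npas3+/- and 345, 325 and 342 in WT. It had among the smallest SE of the list (0.047), with a log2 fold change of 0.033.

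Promoter sequence was read for the 30 members that have an entry in the RefSeq promoter table (GRCm38.p6). H19, Cdkn1c, Peg10, Sgce, Peg13 and Impact have none there. In the 250 bases before the start, the median CpG count was 10.5 for the members' richest promoter and 6 for that of all genes. Grb10 had 40, Gnas 29 and Igf2r 27, while Rian had 0.

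The hexamer TGCCGC, the core of the site bound by ZFP57 when methylated, was searched on both strands. It was present for 5 of 30 members (16.7%), against 9.84% of all 27025 genes and 8.68% of 32851 promoters of the same length. ACGTG, the core of response elements of the bHLH-PAS family to which NPAS3 belongs, was present for 7 of 30 members (23.3%; Asb4, Dlk1, Gnas, Igf2, Igf2r, Kcnq1ot1 and Plagl1), against 18.5% of all genes and 16.6% of promoters. Of the 8 lower genes whose groups were apart, Zim1 and Nap1l5 hold TGCCGC and Slc22a3, Usp29, Inpp5f, Rian and Blcap hold neither. A match is a description of the letters and not a bound site.

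The 5 members with the hexamer are printed to show its setting, each on the strand of the gene, with the hexamer or its reverse complement GCGGCA in capitals. Mest has a further match, within chr6:30737800-30737825, which is not printed.
Mest, chr6:30737971-30738000, plus strand: aggaggggcgctGCGGCAggatgggcgggt
Nap1l5, chr6:58907133-58907162, minus strand: cagccattcactTGCCGCgagccgcgaagc
Zim1, chr7:6696435-6696464, minus strand: gaaagtcatcccGCGGCAttccactccggg
Plagl1, chr10:13090730-13090759, plus strand: ctggcgtgttgcGCGGCAaagcccacggca
Meg3, chr12:109540794-109540823, plus strand: gccaggggcactGCGGCAgatttttttttc

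Genes that set and keep imprints lay mostly above their WT level, with none past the threshold. Of 25 DNA methylation, ZFP57-KAP1, Polycomb and related factors 23 were tested, 4 with a fold change below 0 and 19 above (median 0.073), against 51.8% of all genes below 0. At an unadjusted p under 0.05, 5 were higher and 1 lower, against 6.29% and 5.84% of all genes. Ehmt2, the histone H3 lysine 9 methyltransferase G9a, was at 302 ± 4.89 CPM in Npas3+/- and 270 ± 7.45 in WT (SD, n = 3), a log2 fold change of 0.16 (SE 0.044, edgeR adjusted p = 0.276). Setdb1, the methyltransferase recruited by KAP1, had 0.17 (edgeR adjusted p = 0.345) and Ehmt1, the partner of Ehmt2, 0.14 (edgeR adjusted p = 0.379).

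The germ-line factors Dnmt3l and Dppa3 had 0 counts in every library. Zfp57 itself, named after its values were seen, was at 206, 213 and 195 CPM in Npas3+/- and 200, 133 and 201 in WT. WT replicate 2, the highest library for many imprinted genes, was the lowest for Zfp57, and a relation between them was not tested.

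Of 41 other imprinted genes outside the main list, 34 were tested, 21 with a fold change below 0 and 13 above, a median of -0.094. At an unadjusted p under 0.05, 4 were lower and 4 higher, against 5.84% and 6.29% of all genes, and DESeq2 called 2, Snhg14 and Osbpl5, against 2.41% of all genes. Osbpl5, a lipid transfer protein gene of the Kcnq1 domain, was at 61.6, 54.5 and 54.3 CPM in Npas3+/- and 47.3, 43.4 and 47.2 in WT, higher in every Npas3+/- library (log2 fold change 0.31, SE 0.078, edgeR adjusted p = 0.276, DESeq2 adjusted p = 0.0371). Kcnq1, a potassium channel gene that overlaps Kcnq1ot1 on the opposite strand, was at 0.386 ± 0.138 and 1.13 ± 0.286 CPM (log2 fold change -1.55, SE 0.41, edgeR adjusted p = 0.276).

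In the IGF pathway, which Igf2, Igf2r and Grb10 act on, 19 genes of 19 were tested, 9 with a fold change above 0 and 10 below, a median of -0.001. The smallest p-values were those of the kinase Akt1 (log2 fold change 0.15, edgeR adjusted p = 0.338), the RNA-binding protein Igf2bp1 (0.42, adjusted p = 0.345) and the transcription factor Foxo1 (-0.41, adjusted p = 0.422). None passed the threshold.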

How the data were processed

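Bulk RNA-seq of postnatal day 0 cortex was analysed from 3 Npas3+/- and 3 WT libraries. The authors deposited raw read counts per gene in 1 table, made with Trimmomatic 0.3.8, HISAT2 2.1.0 and featureCounts on mm10, per the submitters' processing notes. The annotation release, strand setting and treatment of reads with several matches are not given in the sources used here, so counts of overlapping or antisense genes are uncertain. NP columns were read as Npas3+/-, since the labels hold no further genotype. Identifiers were matched to GENCODE M21 (53274 of 53379, 105 unmatched).

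Counts were fitted with edgeR 4.0.16 in R 4.3.3 (filterByExpr on genotype, 21244 genes, TMM scaling, glmQLFit and glmQLFTest with genotype as the only term). P-values were adjusted by Benjamini-Hochberg over all genes, threshold 0.05. A fold change is the log2 ratio of Npas3+/- to WT, and its SE is the fold change divided by the root of F. CPM are TMM-scaled, and RPKM use GENCODE exon length. The biological coefficient of variation was 26.1%. An exact two-sided permutation test of 3 against 3 cannot go below 0.1 and was not used. Scores are mean deviations of log2 CPM (prior count 2). The alternatives comprised DESeq2 1.42.0 (independent filtering at 0.05), limma-voom 3.58.1, upper-quartile or RLE scaling, stricter and looser count filters, a block for replicate number, GC offsets (lowess, span 0.4), a striatal score as covariate, and each library left out. The fit was tested on simulated counts.

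Members and lists were chosen with earlier results of these data known. By rule, values in every library are given for the 12 members with the smallest p and for the member with the highest RPKM in each cluster; of the other lists, the 3 genes with the smallest p are named.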

Additional observations from a re-analysis of the deposited data

How the results depend on the processing

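Over the whole table, 8 genes passed in edgeR, 511 in DESeq2, 3 with the replicate block, 3 with GC offsets and the replicate block together, 5 with the striatal covariate, and 7 to 16 when a library was left out (16 without WT replicate 1). No imprinted gene passed under any of these except Peg10 in DESeq2 (1 gene). The 11 imprinted genes lower at an unadjusted p under 0.05 became 7 with the replicate block, 7 with GC offsets, 2 with the striatal covariate and 3 to 10 when a library was left out. The cause of these shifts was not tested, and the share of all genes at that p was not computed for these runs. The labels do not say that replicate numbers pair the samples. Deviations of same-numbered samples correlated at 0.0368, -0.03 and -0.0879, and not every sample correlated best with its own number. Such correlations cannot settle whether samples shared a litter or a day. Between 25 and 28 imprinted genes had a fold change below 0 under each alternative, and the class medians stayed below 0. Sign changed for Snrpn (0.014 with the striatal covariate), Ube3a (0.024 with GC offsets, 0.021 with GC offsets and the replicate block) and Meg3 (-0.16 to 0.014 when a library was left out); 11 further genes, whose fold change was below its SE, also changed sign somewhere, and 21 kept theirs throughout. The least abundant genes tested (Asb4, Airn, Dlk1, Slc22a3) rest on few reads (51 to 105 counts a library for Asb4).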
